A study of Mus musculus with 23 samples.

Results

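The nuclear genes for respiratory chain complexes III and IV and for ATP synthase were examined in mouse intestinal organoids and in mouse small intestine. The genes were chosen by symbol in the GENCODE vM21 annotation of the mm10 genome, as those starting with Uqcr, with Atp5, or with Cox4, Cox5, Cox6, Cox7 or Cox8 followed by a letter, together with Cyc1. This gave 45 of the 22350 genes with an entry in any file, of which 9 belong to complex III, 18 to complex IV and 18 to ATP synthase. Of the 45 genes, 35 encode subunits found in most tissues, and 7 encode isoforms of complex IV subunits known from muscle, heart, lung or testis (Cox4i2, Cox6a2, Cox6b2, Cox7a1, Cox7b2, Cox8b and Cox8c). Another 2 are not subunits, namely Cox7a2l, a factor that joins complexes III and IV into supercomplexes, and Atp5s, the coupling factor B of ATP synthase, and 1 is a second identifier that carries the symbol Atp5o. A further 8 processed pseudogenes with matching symbols had no entry, and whether reads from them were counted on their parent genes was not tested.

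Complex III takes electrons from ubiquinol and passes them to cytochrome c, and complex IV passes them from cytochrome c to oxygen. Both build a proton gradient across the inner mitochondrial membrane, which ATP synthase uses to make ATP. Each enzyme combines many subunits made from nuclear genes with a few made inside the mitochondrion. In the crypts of the small intestine, stem cells are known for relying on mitochondrial respiration, whereas the neighbouring Paneth cells rely more on glycolysis.

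RNA sequencing covered 3 groups of organoids of strain C57BL/6, all carrying VillinCre.ERT2, a tamoxifen-inducible Cre expressed throughout the intestinal epithelium. WT organoids (VillinCre.ERT2.RPL22.HA, n = 2) and Rptor organoids (VillinCre.ERT2.Rptor.fl/fl, n = 2) were grown in the usual noggin and R-spondin medium. Stem cell enriched (SCe) organoids (VillinCre.ERT2.RPL22.HA, n = 3) also received 10 μM CHIR 99021, a GSK3 inhibitor, and 1.5 mM valproic acid, a histone deacetylase inhibitor. Rptor encodes Raptor, an essential component of mTORC1, and RPL22.HA is a tagged ribosomal protein that the labels give for the WT and SCe organoids but not for the Rptor organoids of the RNA sequencing. Ribosome profiling, which counts the mRNA fragments covered by ribosomes, was available for Rptor (VillinCre.ERT2.Rptor.fl/fl.RPL22.HA, n = 3) and SCe (n = 3) organoids, where genotype and medium differ together and cannot be told apart. It was also available for small intestine of adult C57BL/6 mice that were Lgr5Cre.ERT2.RPL22.HA (WT, n = 3) or Lgr5Cre.ERT2.Rptor.fl/fl.RPL22.HA (Rptor, n = 3), in which the Cre of crypt-base stem cells drives both the tag and the deletion. The labels call the WT and Rptor groups untreated, whereas the study's methods describe tamoxifen induction of Cre. The labels do not say which samples are separate cultures, so p-values measure the spread between these samples.

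Assigned reads numbered 27439459 to 67598878 in the RNA samples, 1106178 (SCe 2) to 8257457 in the organoid footprint samples and 772077 (WT 1) to 8238388 in the mouse samples. Levels are given as CPM, read counts scaled to a common library total after TMM normalization. Rptor mRNA stood at 51.5 and 47.9 CPM in WT, 14.8 and 15.5 in Rptor and 53.7 to 60.8 in SCe organoids. Lgr5, a stem cell marker, stood at 215 and 197 CPM in WT, 44.4 and 73.9 CPM in Rptor and 219 to 337 CPM in SCe organoid RNA. Summed over 8 stem cell markers, RNA held 3721 to 5280 CPM in WT and 950 to 2174 CPM in Rptor. The sum in SCe, 1009 to 2114 CPM, was also below WT. The median log2 fold change of the 8 markers in SCe against WT was 0.23. Footprints on Rptor overlapped between the Rptor (15.9 to 18.7 CPM) and SCe (15.2 to 41.8 CPM) organoids. In the mice they were 39.5 to 44.5 CPM in WT and 32.5 to 36.7 CPM in Rptor. The mouse libraries held Lgr5 at 6.29 to 45.6 CPM, together with enterocyte markers at a sum of 67414 to 80716 CPM and smooth muscle markers at 1293 to 1534 CPM. SCe library 1 stood apart in both assays. In RNA its enterocyte markers summed to 1145 CPM against 8028 and 9082 CPM in the other SCe libraries, and its footprints were raised on short coding sequences, as described with the footprint results. In bulk samples, fewer cells of a type and less RNA per cell cannot be told apart.

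Among the subunits, Atp5b, the catalytic beta subunit of ATP synthase, had the highest mRNA level per length in every organoid group. Its level was 1007 ± 8.84 CPM per kb of the deposited transcript length (SD, n = 2) in WT, 904 ± 2.08 (n = 2) in Rptor and 790 ± 67.0 (n = 3) in SCe organoids. Atp5a1, the alpha subunit, followed in WT with 626 ± 6.89, next to Cox4i1, a complex IV subunit needed early in its assembly, with 570 ± 5.31. The lowest subunits in WT were Uqcrfs1, the Rieske iron-sulfur protein of complex III, with 145 ± 2.03, and Atp5j2, subunit f of ATP synthase, with 144 ± 14.0 CPM per kb. The non-subunit Atp5s was far below them, at 7.76 ± 0.278 in WT, whereas Cox7a2l lay among them at 194 ± 4.84. The subunits and other members together made up 1.03% and 1.06% of assigned RNA reads in WT, 0.942% and 0.983% in Rptor and 0.844% to 0.857% in SCe libraries, 3 groups that do not overlap.

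Footprints per length followed another order. In Rptor organoids the highest members were Atp5g3, which encodes the c-ring subunit, with 2451 ± 101 CPM per kb (SD, n = 3), Cox7c, a small complex IV subunit, with 2413 ± 42.1, and Cox6b1, a complex IV subunit facing the intermembrane space, with 2311 ± 84.6. Uqcrfs1 was the lowest subunit, at 399 ± 19.9. In SCe organoids Cox8a reached 3665 ± 3200, a spread set by SCe library 1, in which Cox8a had 1879 CPM against 554 and 382 CPM in the others. In the mice Atp5g3 and Atp5b led in both genotypes, with 1514 ± 67.4 and 1498 ± 89.6 CPM per kb of the deposited length in WT. Mouse and organoid entries differed in length, and for Cox8a, with 207 coding bases, both reached beyond the coding sequence. In mouse WT library 1 Cox8a had 347 CPM but 1006 CPM per kb. The mouse and organoid orders are therefore not directly comparable.

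The first comparison asked what loss of Rptor did to these mRNAs in organoids. Subunit mRNAs were lower in Rptor than in WT organoids by a small amount: 33 of 35 subunits had a log2 fold change below 0, with a median of -0.23, while the median of all 14131 genes tested was -0.00. Of the 45 members, 5 isoforms (Cox4i2, Cox6a2, Cox7b2, Cox8b and Cox8c) were too low to be tested here. By edgeR's quasi-likelihood test with Benjamini-Hochberg adjustment (threshold 0.05), 8 of the 40 members tested fell and 1 rose, a share of 22.5% against 22.6% of all genes. The call rate was therefore near the background, but its direction was not evenly split: 11.0% of all genes fell and 11.6% rose. The members that fell comprised 3 of complex III, 1 of complex IV and 4 of ATP synthase. Without regard to the test, both Rptor libraries lay below both WT libraries for 31 of 35 subunits, which holds for 34.8% of all genes, and for no subunit did both lie above, against 34.3% of all genes.

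**Figure D1:**
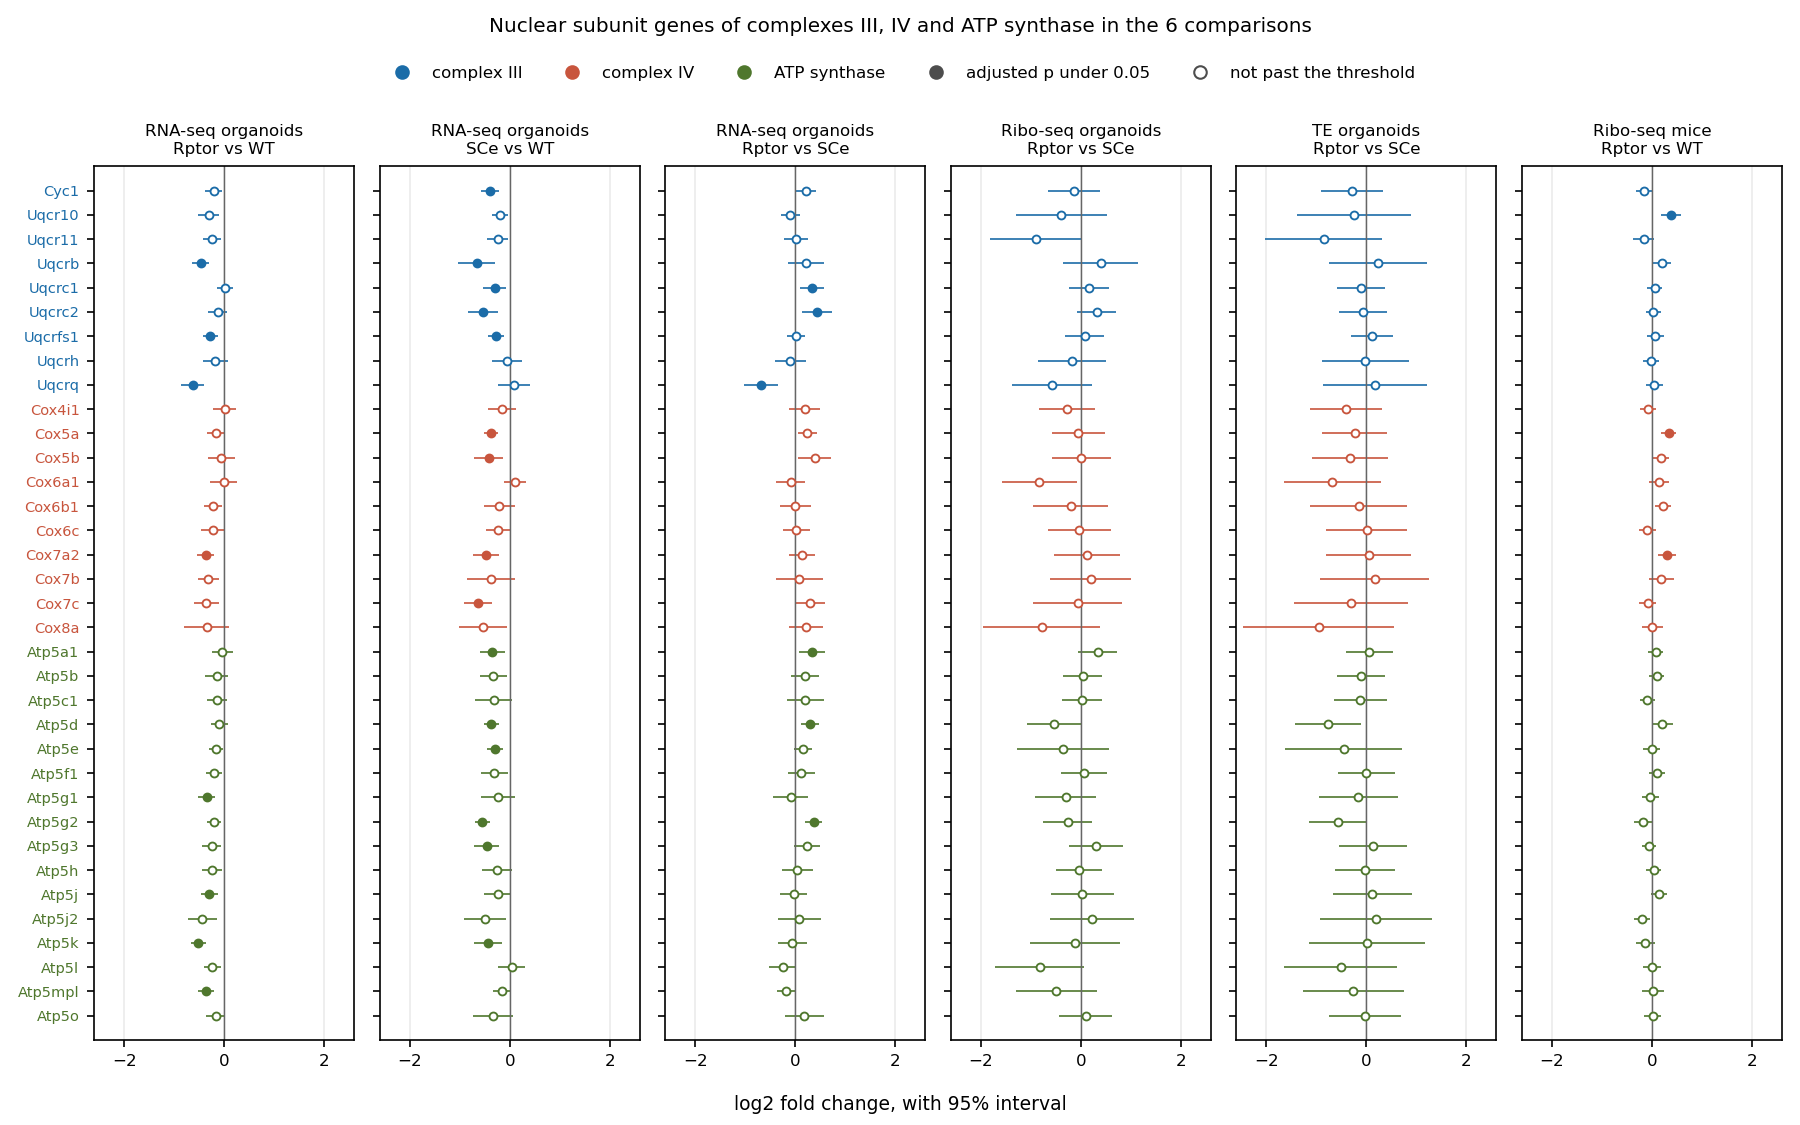
Log2 fold change of each of the 35 subunit genes (points, with 95% intervals) in the 6 comparisons, 1 panel each, coloured by complex. Filled points passed an adjusted p of 0.05. In the first panel (RNA, Rptor against WT) 33 of 35 points lie below 0, in RNA SCe against WT 32 of 35, and in the footprint panels the points lie on both sides of 0.

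The largest fall was that of Uqcrq, a small subunit at the ubiquinone-binding side of complex III (chr11:53427922-53430831, minus strand). Its mRNA stood at 133 and 123 CPM in WT and at 77.1 and 87.5 CPM in Rptor libraries. The SCe libraries, at 115, 134 and 149 CPM, lay near WT, so that Uqcrq was low in the Rptor libraries alone. The change was -0.63 on the log2 scale (SE 0.09, adjusted p = 0.0167 by edgeR). Atp5k, subunit e of ATP synthase, which helps the enzyme form dimers (chr5:108433244-108434448), had 84.5 and 86.2 CPM in WT and 57.8 and 61.4 CPM in Rptor libraries. It fell by 0.52 (SE 0.06, adjusted p = 0.0127), and its SCe libraries, at 54.4 to 67.3 CPM, overlapped those of Rptor. Uqcrb, another ubiquinone-binding subunit of complex III, went from 109 and 118 to 81.1 and 83.2 CPM, a fall of 0.47 (SE 0.06, adjusted p = 0.0166).

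Of the other members called, Cox7a2, the common isoform of a small complex IV subunit, had 159 and 169 CPM in WT and 123 and 131 CPM in Rptor libraries (log2 fold change -0.37, adjusted p = 0.0252). Atp5mpl, a small proteolipid of ATP synthase, changed by -0.36, and Atp5g1, a c-ring gene, by -0.35. Atp5j, coupling factor 6, fell by 0.30 and Uqcrfs1 by 0.28 (adjusted p = 0.0362 and 0.0355). In each of these genes both Rptor libraries were below both WT libraries. Several lay just outside the threshold, among them Atp5g2 (-0.21, adjusted p = 0.0514), Cox7b (-0.32, adjusted p = 0.0516) and Atp5j2 (-0.44, adjusted p = 0.052). Of 9 subunits followed in each comparison (Uqcrc1, Uqcrc2, Cyc1, Uqcrfs1, Cox4i1, Cox5a, Cox5b, Atp5a1 and Atp5b), 1 fell, Uqcrfs1. The log2 fold change was 0.01 for Uqcrc1, -0.13 for Uqcrc2, -0.04 for Atp5a1, -0.15 for Atp5b, 0.01 for Cox4i1, -0.16 for Cox5a and -0.06 for Cox5b, none of which passed the test. Cyc1, which encodes cytochrome c1, was 276 CPM in both WT libraries and 232 and 245 CPM in the Rptor libraries, a change of -0.21 (adjusted p = 0.0732).

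Cox7a2l (chr17:83501918-83517330) was the member that rose. Its mRNA stood at 205 and 212 CPM in WT, 246 and 267 CPM in Rptor and 265, 325 and 282 CPM in SCe libraries. Both other groups lay above WT without overlap. The change in Rptor was 0.30 (SE 0.07, adjusted p = 0.0448). Leaving out any 1 library left a single library in its group, and fewer members and a smaller share of all genes were then called. The member median was -0.17 without Rptor library 1 and -0.25 without Rptor library 2. It was -0.22 without WT library 1 and -0.21 without WT library 2. Uqcrq and Atp5k were called in each of these fits and Cox7a2l in none. Goblet cell markers summed to 1592 to 1695 CPM in WT and 2952 to 4056 CPM in Rptor libraries, and Paneth cell markers to 4047 to 5169 and 687 to 1459 CPM. Their part in the changes above was not tested.

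**Figure D2:**
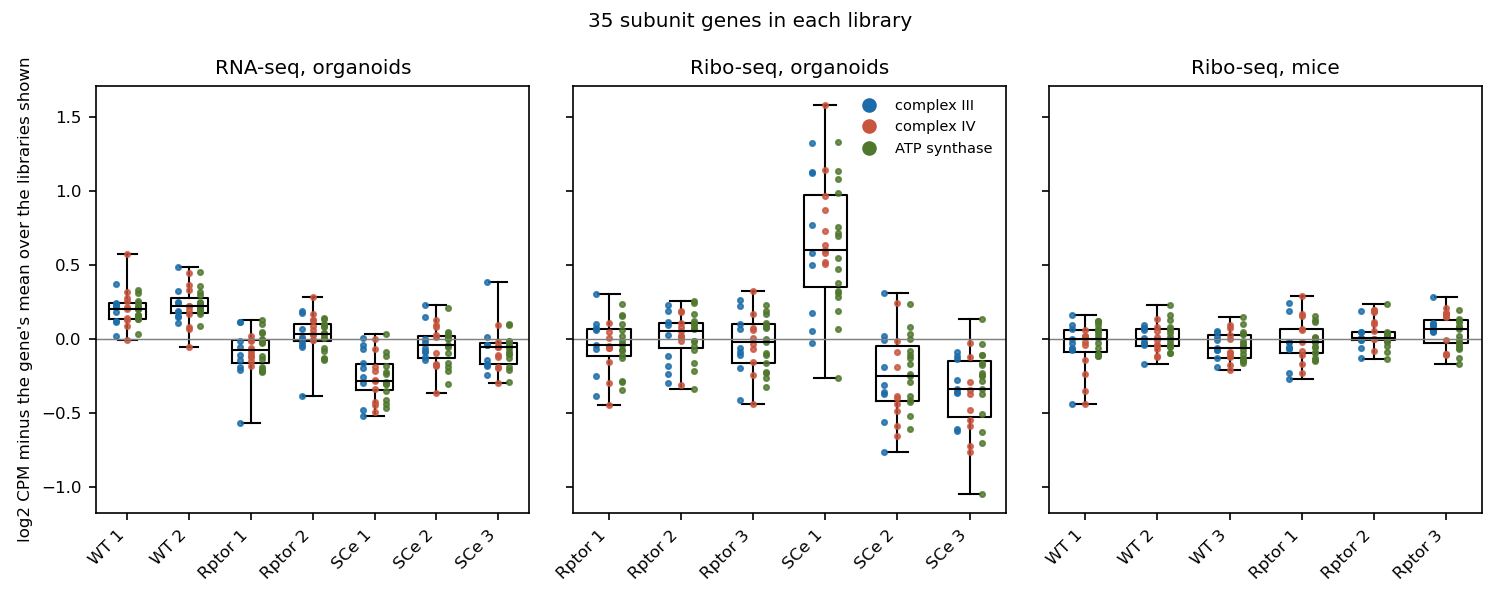
Each library's log2 CPM of the 35 subunits minus the gene's mean over the libraries of its panel (points are genes, boxes the quartiles), for organoid RNA, organoid footprints and mouse footprints. In RNA the library medians are 0.20 and 0.22 in WT, -0.07 and 0.03 in Rptor and -0.28 to -0.04 in SCe, and in organoid footprints SCe library 1 stands apart at 0.60.

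In the SCe organoids members of all 3 enzymes were lower than in WT. Of 39 members tested 15 fell and 2 rose, or 43.6% against 42.3% of all genes tested. The falls made up 38.5% of the members, against 19.9% of all genes. Fallen members numbered 5 in complex III, 4 in complex IV and 6 in ATP synthase. The median log2 fold change was -0.32 for the members and 0.02 for all 14925 genes tested, and 32 of 35 subunits were below 0. For 31 of 35 subunits every SCe library lay below both WT libraries, against 35.1% of all genes, and for none did every one lie above, against 33.9%. The Rptor and SCe comparisons share the WT libraries, so that their likeness is no independent finding.

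Of the 9 subunits followed in each comparison, 7 fell, all but Atp5b and Cox4i1. Uqcrc2, a core protein of complex III, had 388 and 412 CPM in WT and 237, 299 and 278 CPM in SCe libraries. This was a fall of 0.54 (SE 0.12, adjusted p = 0.0205 by edgeR's quasi-likelihood test). Cyc1 changed by -0.40 (adjusted p = 0.0117), Uqcrc1 by -0.30 (adjusted p = 0.0476) and Uqcrfs1 by -0.27 (adjusted p = 0.0225). In ATP synthase, Atp5a1 went from 1535 and 1559 CPM to 1118, 1288 and 1193 CPM, a change of -0.35 (adjusted p = 0.0403). Atp5b changed by -0.33 and did not pass (adjusted p = 0.0601). In complex IV, Cox7c had 209 and 228 CPM in WT and 123, 148 and 146 CPM in SCe libraries (log2 fold change -0.63, SE 0.11, adjusted p = 0.0106). Cox5a fell by 0.37 (adjusted p = 0.00676) and Cox5b by 0.42 (adjusted p = 0.0327), while Cox4i1 was at -0.16 (adjusted p = 0.29).

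Of the subunits called, Uqcrb had the largest fall and Atp5g2 the smallest p. Uqcrb was 109 and 118 CPM in WT and 58.7, 79.2 and 74.7 CPM in SCe libraries (log2 fold change -0.66, SE 0.14, adjusted p = 0.0198). Atp5g2 was 186 and 185 CPM in WT and 129, 122 and 123 CPM in SCe libraries (-0.55, SE 0.06, adjusted p = 0.00315). For both genes the groups were well apart. With either WT library left out, which left a single WT library, the Atp5g2 change was -0.57 and the calls of the other members did not hold. Without SCe library 1, 33 members were called (3 up and 30 down, with 64.2% of all genes called). Without SCe library 2 there were 10 and without SCe library 3 there were 5, with 29.9% and 27.8% of all genes called. The SCe libraries also held less of the goblet cell markers (245 to 429 CPM in sum), of the Paneth cell markers (875 to 3463 CPM) and of the enteroendocrine markers (2.11 to 27.1 CPM against 207 to 303 CPM in WT), and more of the stromal markers (69.7 to 115 CPM against 2.34 to 3.42 CPM in WT), whose part was not tested.

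Set directly against SCe organoids, Rptor organoids had more mRNA of the complex III core proteins Uqcrc1 and Uqcrc2 and of the ATP synthase alpha subunit. Of 40 members 6 were higher and 2 lower in Rptor, a share of 20% against 42.7% of all 15103 genes tested, and the median was 0.14 against -0.01. The subunits higher in Rptor were Uqcrc2 (0.43, SE 0.12, adjusted p = 0.036), Atp5g2 (0.37, SE 0.07, adjusted p = 0.0112), Uqcrc1 (0.34, adjusted p = 0.0369), Atp5a1 (0.33, adjusted p = 0.0475) and Atp5d, the delta subunit of ATP synthase (0.29, adjusted p = 0.0264). The isoform Cox7a1 was also higher. Lower in Rptor were Uqcrq (-0.69, SE 0.14, adjusted p = 0.0134) and the isoform Cox6b2. By library, Atp5d was 202 and 216 CPM in Rptor and 173, 169 and 172 CPM in SCe libraries, without overlap. All Rptor libraries lay above all SCe libraries for 17 of the 40 members, against 33.8% of all genes, and below them for 5, against 34.3%. The count was 14 without SCe library 1, with 60.9% of all genes called. It was 2 without SCe library 2 or 3 (Uqcrq and Cox6b2 each time), with 29.6% and 27% of all genes called. Leaving out Rptor library 1 or 2 left a single Rptor library. The member median was then 0.19 or 0.11, and the calls above did not hold.

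The isoforms that most tissues lack were near 0 in the organoids, with 2 exceptions. The second Atp5o identifier was also low, at most 0.346 CPM in organoid RNA, and was tested in the comparisons of Rptor organoid RNA alone. Cox8c had no reads in any library. Cox8b had none in organoids, and Cox4i2, Cox6a2 and Cox7b2 stayed at or below 0.0189, 0.101 and 0.0175 CPM there. In the mice Cox4i2, Cox6a2 and Cox8b reached at most 1.26, 1.21 and 1.26 CPM. The exceptions were Cox6b2, which was highest in SCe RNA, and Cox7a1, which was lowest there.

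Cox6b2 (chr7:4751792-4753094, minus strand) is known as the testis isoform of the Cox6b subunit. Its mRNA had 0.529 and 0.161 CPM in WT and 0.29 and 0.035 CPM in Rptor libraries, from at most 28 reads a library. In SCe libraries it had 2.41, 11.4 and 11.1 CPM, from 72, 724 and 648 reads. Every SCe library was above every other organoid RNA library, and SCe library 1 was lower than the other SCe libraries. The difference was 4.60 between SCe and WT (SE 0.99, adjusted p = 0.019 by edgeR's quasi-likelihood test) and -5.69 between Rptor and SCe (SE 1.17, adjusted p = 0.0157). The former was called without SCe library 1 but not without SCe library 2 or 3 or without either WT library. Footprints showed it too: 0 reads in each Rptor library, which allows up to 3 in each, and 16, 8 and 4 reads in the SCe libraries (8.66, 6.83 and 0.923 CPM). Even so it was a small part of the Cox6b mRNA, 3.88% ± 2.17 (SD, n = 3) in SCe organoids, since Cox6b1 had 187, 239 and 223 CPM there. The testis markers Prm1, Prm2, Tnp1, Odf1 and Akap4 were at 0 in all organoid libraries. Mouse footprints on Cox6b2 stood at 2.52 to 3.09 CPM in WT and 4.4 to 4.59 CPM in Rptor libraries. They came from at most 35 reads a library, and the difference was not called.

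**Figure D3:**
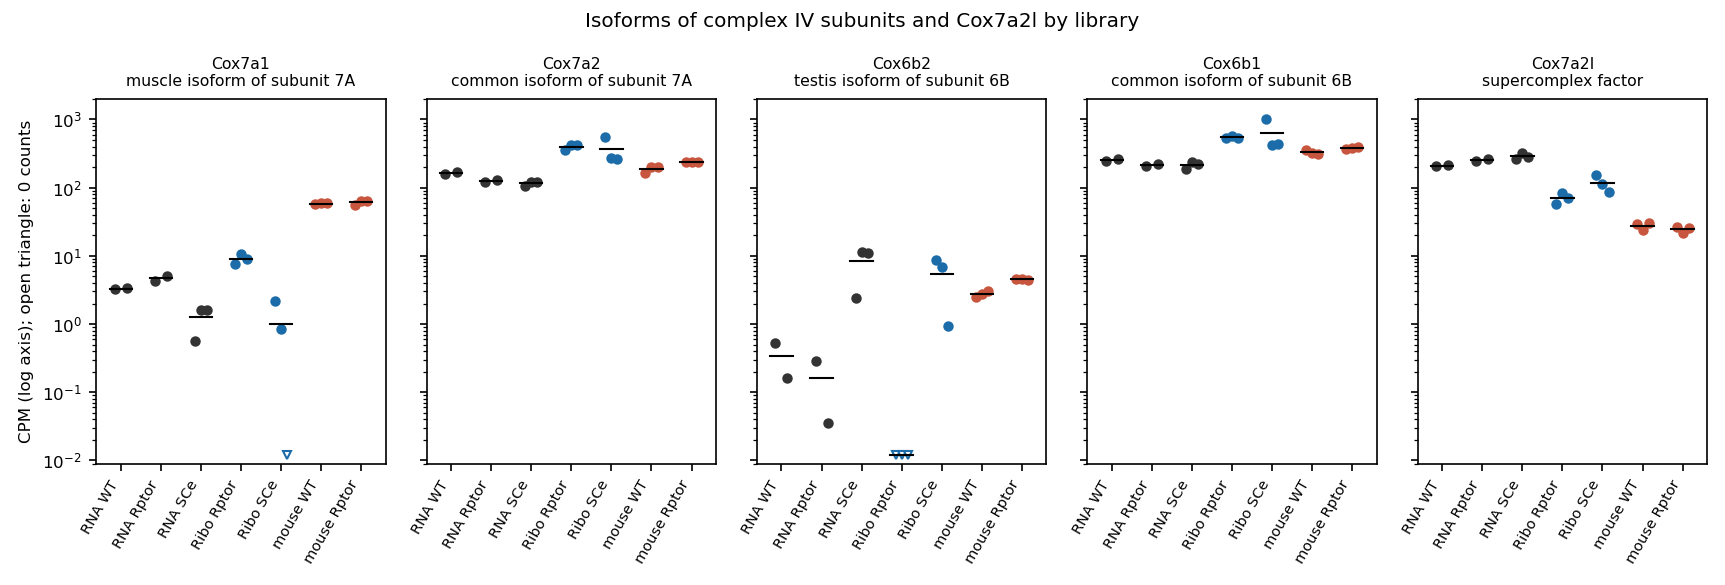
CPM (log axis) by library of Cox7a1, Cox7a2, Cox6b2, Cox6b1 and Cox7a2l in organoid RNA, organoid footprints and mouse footprints (bars are group means, open triangles libraries with 0 counts). Cox6b2 is at 2.41 to 11.4 CPM in SCe RNA and below 1 in the WT and Rptor RNA libraries. Among the organoids Cox7a1 is highest in Rptor in either assay, and in the mice it is at 55.1 to 64.6 CPM over both genotypes.

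Cox7a1 (chr7:30184144-30186078, plus strand) is known as the heart and muscle isoform of the Cox7a subunit. In RNA it had 3.23 and 3.35 CPM in WT, 4.28 and 5.11 CPM in Rptor and 0.568, 1.62 and 1.58 CPM in SCe libraries. The groups did not overlap, with Rptor at the top. The difference between Rptor and SCe was 1.88 (SE 0.47, adjusted p = 0.0279), and those of Rptor and of SCe from WT did not pass (0.51, adjusted p = 0.0882, and -1.35, adjusted p = 0.0741). In footprints Rptor libraries held 46, 66 and 75 reads (7.63, 10.5 and 9.12 CPM) and SCe libraries 4, 1 and 0 reads. This was a log2 difference of 3.55 (SE 0.79, adjusted p = 0.0173), on very few SCe reads. Of the 8 striated muscle markers, Myh1, Myh2, Myh4 and Tnnt3 were at 0 in organoid RNA, and Ckm and Mb at most at 0.143 and 0.268 CPM. Acta1 had 15.5 and 20.9 CPM in WT, 64.1 and 105 in Rptor and 6.93 to 10.9 in SCe libraries. The 2 striated muscle markers tested between Rptor and SCe RNA went opposite ways, at 3.15 and -1.31. The 4 smooth muscle markers tested there had a median of -2.65. The part of muscle-like cells in the Cox7a1 difference was not tested.

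Within the Cox7a pair, Cox7a1 made up 2.82% ± 0.0242 (SD, n = 2) of the length-scaled mRNA in WT, 5.14% ± 0.474 (n = 2) in Rptor and 1.44% ± 0.605 (n = 3) in SCe organoids. Its share of footprints was 2.29% ± 0.188 in Rptor organoids and 0.24% ± 0.211 in SCe organoids (n = 3 each). In the mice it was 30.3% ± 1.89 in WT and 26.5% ± 1.7 in Rptor (n = 3 each), with Cox7a1 between 55.1 and 64.6 CPM in all mouse libraries. The mouse and organoid tables were normalized separately, and smooth muscle markers summed to 1293 to 1534 CPM in the mice and 15.1 to 40.9 CPM in the organoids, whose part was not tested.

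The c-ring of ATP synthase is encoded by the 3 genes Atp5g1 (chr11:96068852-96075670), Atp5g2 (chr15:102662864-102672352) and Atp5g3 (chr2:73908447-73911326), all on the minus strand, which differ in the targeting peptide that is cut off and share the mature protein. They are shown because reads of near-identical copies can be split wrongly. Over the last 228 coding bases, Atp5g1 and Atp5g2 were 85.1% identical, Atp5g1 and Atp5g3 79.8% and Atp5g2 and Atp5g3 78.5%. The longest shared run of any pair of isoform genes examined was 21 bases (Atp5g1 and Atp5g2), and none of the 11 pairs shared a stretch of 28 coding bases. The last 30 coding bases, from the GENCODE vM21 coding parts on mm10, are given 5′ to 3′ with capitals at the 9 positions where the 3 genes are not all the same.
Atp5g1: gtCgcCttCCtCatcCtCttCgccatgtGa
Atp5g2: gtGgcCttTCtCatcCtCttCgccatgtGa
Atp5g3: gtTgcGttCTtGatcTtGttTgccatgtAa

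Atp5g3 made up most of the c-ring mRNA, with 53.3% ± 0.775 (SD, n = 2) in WT, 53.9% ± 0.697 (n = 2) in Rptor and 52.4% ± 0.479 (n = 3) in SCe organoids. Of the c-ring footprints it took 67.9% ± 2.36 in Rptor organoids, with libraries from 66 to 70.5%, and 58.4% ± 0.196 in SCe organoids, with libraries from 58.3 to 58.7% (n = 3 each). The ranges did not overlap. In the mice, whose deposited entries differ in length from those of the organoids, the share was 74.2% ± 0.838 in WT and 74.5% ± 0.355 in Rptor. Atp5g1 and Atp5g2 took 15.1% and 17% of the footprints in Rptor and 19.6% and 22% in SCe organoids.

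Few footprint differences between Rptor and SCe organoids passed the test. Of 38 members tested 1 (Cox7a1) was higher in Rptor and none was lower by edgeR's quasi-likelihood test, against 16.5% of all 10817 genes tested, of which 6.63% were higher and 9.84% lower. The median log2 difference was -0.04 for the members and -0.02 for all genes. Atp5b footprints stood at 3288, 3627 and 3314 CPM in Rptor and at 3523, 3445 and 3011 CPM in SCe libraries. These overlapped, as did those of most subunits. Libraries were apart, with Rptor higher, for 4 members tested (Uqcrc1, Uqcrc2, Atp5a1 and Cox7a1) and, with Rptor lower, for 2 (Cox7a2l and, narrowly, Atp5l), against 20.0% and 19.3% of all genes. Cox7a2l had 58.4, 82.1 and 69.5 CPM in Rptor and 153, 114 and 85.6 CPM in SCe libraries (-0.74, SE 0.24, adjusted p = 0.067).

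The SCe footprint libraries differed widely among themselves. The 3 SCe libraries held 9152, 4298 and 3796 CPM on complex IV, against 4603 to 5100 CPM in Rptor libraries. On complex III they held 5246, 3029 and 2796 CPM, against 3448 to 3490 CPM, and on ATP synthase 16048, 12089 and 10858 CPM, against 13164 to 13961 CPM. In each case SCe library 1 lay above all Rptor libraries and SCe libraries 2 and 3 below them. Uqcrb shows this for a single gene, with 376, 356 and 365 CPM in Rptor and 455, 179 and 198 CPM in SCe libraries. Uqcrq had 294, 307 and 304 CPM in Rptor and 758, 272 and 318 CPM in SCe libraries, so that SCe library 1 was high here too, whereas SCe library 3 lay just above the Rptor libraries. Enterocyte markers summed to 9791 to 10336 CPM in Rptor and 1962 to 5371 CPM in SCe libraries, and stromal markers to 5.71 to 9.78 and 143 to 809 CPM. Their part was not tested.

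The excess in SCe library 1 went with the length of the coding sequence in all genes, and many subunits are short. For coding sequences up to 300 bases, the median log2 difference of SCe library 1 from the mean of the Rptor libraries was 0.72 over all 224 genes and 0.91 over the 15 members. For 301 to 600 bases it was 0.65 over 1250 genes and 0.55 over 14 members, and above 1500 bases -0.31 and, over 2 members, -0.19. In SCe libraries 2 and 3 the shortest class was instead at -0.36 and -0.26 over all genes and at -0.43 and -0.50 over the members. The largest mean difference among uncalled members of complex IV, Cox6a1 (-0.83, SE 0.33, adjusted p = 0.127), came with 939 CPM in SCe library 1 and 504 and 335 CPM in the others. Without SCe library 1, 9 members were higher in Rptor and none lower, with 23.8% of all genes called. They were Cox7a1, Uqcrb (0.95), Cox7b (0.81), Atp5j2 (0.80), Cox7c (0.66), Atp5k (0.61), Atp5g3 (0.60), Cox7a2 (0.57) and Cox6b1 (0.35), and the median of all members tested became 0.27. Without SCe library 3, 6 were called, with 20.3% of all genes called. They were Cox7a1 and, lower in Rptor, Cox6b2, Uqcr11 (-1.24), Cox6a1 (-1.10), Cox7a2l (-0.93) and Atp5d (-0.73). Without any 1 of the Rptor libraries none was called, with 6.06% to 8.07% of all genes called.

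**Figure D4:**
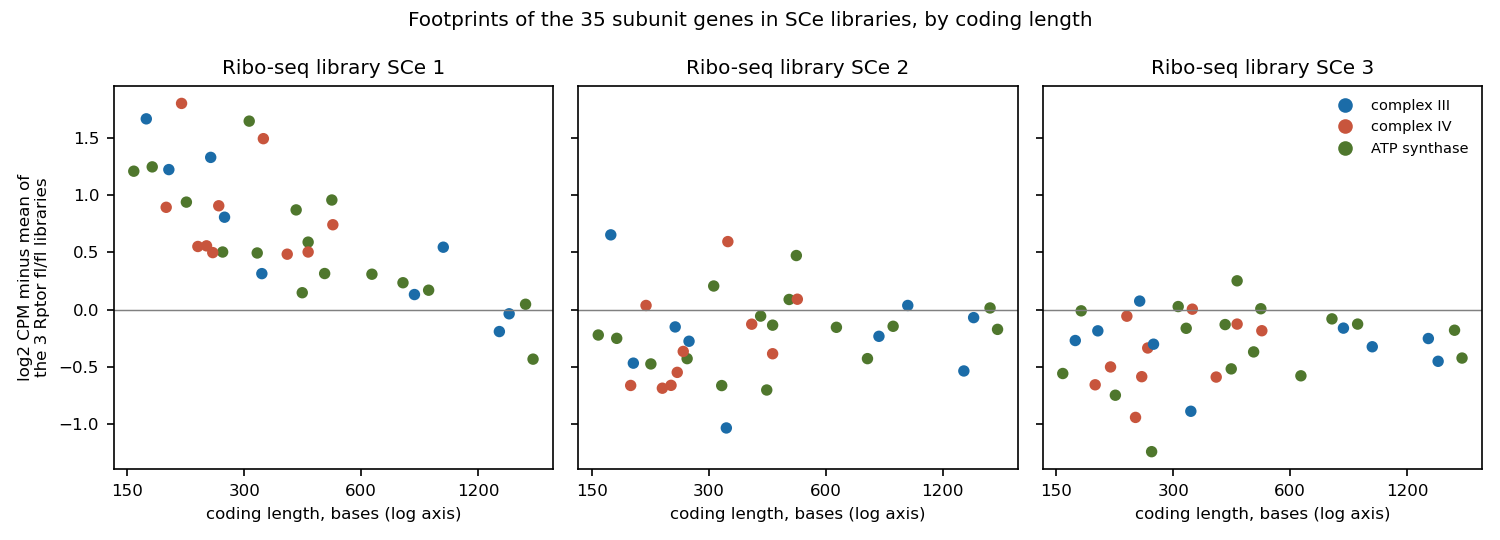
Log2 footprint CPM of each SCe library minus the mean of the 3 Rptor libraries, against coding length in bases, for the 35 subunits (1 panel for each SCe library, coloured by complex). In SCe library 1 the short subunits are raised, with a median of 0.91 over the 15 members up to 300 bases, and in SCe libraries 2 and 3 their medians are -0.43 and -0.50, with single subunits above 0.

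Translational efficiency, the footprint difference beyond the mRNA difference, was tested as an interaction of assay and group in 1 model. The assays differed in cell type markers. Paneth cell markers summed to 687 to 1459 CPM in Rptor RNA and 6934 to 10065 CPM in Rptor footprints. In SCe organoids they summed to 875 to 3463 and 3634 to 6168 CPM. Whether the RNA and footprint cultures were alike in cell types was not tested. None of 38 members passed by edgeR, against 2.93% of all 10747 genes, and DESeq2 called 0, against 11.2% of all genes. By edgeR 1 member had an unadjusted p under 0.05. That 1 was Atp5d, at -0.76 (SE 0.30, unadjusted p = 0.0261, adjusted p = 0.181). The median was -0.10 for the members and -0.03 for all genes. Atp5g2 was next at -0.57 (adjusted p = 0.249), and Cox7a1 was at 1.78 (adjusted p = 0.385). Leaving out footprint library SCe 1 gave 2 calls, Uqcrb (0.79) and Uqcrq (0.77), with 8.51% of all genes called. Leaving out footprint library SCe 3 gave 1, Atp5d (-0.96), with 5.92%. In a further fit the SCe libraries numbered 1 were left out of both assays, a choice made after seeing the data. There 9 members were higher in Rptor and none lower, with 18.6% of all genes called and a member median of 0.27. The 9 were Cox7a1, Cox7b (0.93), Uqcrb (0.90), Uqcrq (0.85), Atp5k (0.81), Cox7a2 (0.56), Atp5g3 (0.49), Cox7c (0.49) and Cox6b1 (0.49).

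Members carried more footprints for their mRNA than the median gene. The ratio of footprints per kb to mRNA per kb had a median of 3.97 over the members in Rptor organoids and 4.98 in SCe organoids, against 1.63 and 1.78 over all genes. By complex, the median in Rptor was 4.42 for complex III, 6.08 for complex IV and 3.33 for ATP synthase. Short coding sequences had high ratios in general: up to 300 bases the median in Rptor was 4.7 over all 214 genes and 7.1 over 15 members, and from 301 to 600 bases it was 3.04 and 3.19. From 601 to 1500 bases it was 1.88 over all genes and 3.2 over 7 members. The highest member was Atp5j2, with 15.5 in Rptor and 14.1 in SCe organoids, followed in Rptor by Uqcrq with 11.3. At the other end, Cox7a2l had 0.724 and 1.1, at percentiles 17.5 and 26.7 of all genes, and Atp5s had 1.78 and 2.07. In the head of ATP synthase, the catalytic Atp5b had 2.3 and 2.57 and its partner Atp5a1 3.33 and 3.32. The ratio sets 2 kinds of library side by side and is a description.

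**Figure D5:**
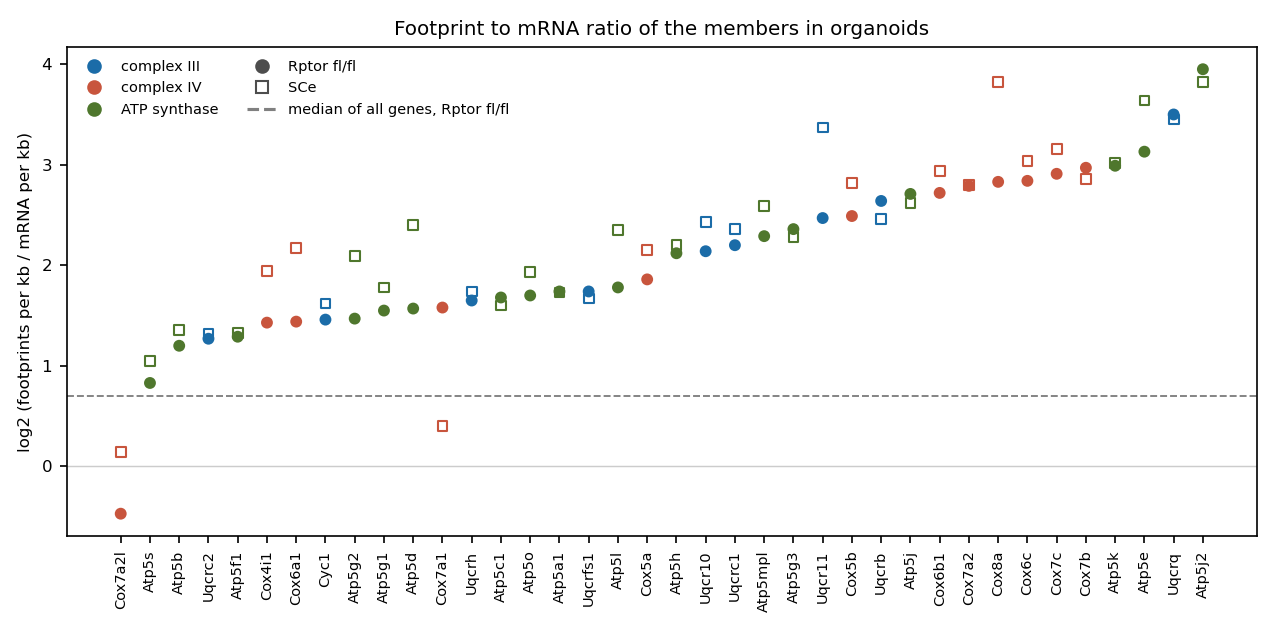
Log2 ratio of footprints per kb to mRNA per kb for the 38 members in Rptor (filled circles) and SCe (open squares) organoids, sorted by the Rptor ratio and coloured by complex. The dashed line is the median of all genes in Rptor organoids, a ratio of 1.63, and nearly all members lie to its high side, whereas Cox7a2l lies below it at 0.724.

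In Rptor mice, which carry floxed Rptor and a Cre driven by Lgr5, Cox5a, Uqcr10 and Cox7a2 had more footprints than in WT mice. Of 39 members tested 3 rose and none fell by edgeR's quasi-likelihood test, or 7.69% against 13.4% of all 11515 genes tested (7.47% up and 5.97% down), and the median log2 fold change was 0.03 against -0.02. Cox5a, a subunit on the matrix side of complex IV, stood at 278, 302 and 290 CPM in WT and 365, 373 and 369 CPM in Rptor libraries. It rose by 0.34 (SE 0.07, adjusted p = 0.00458). Uqcr10, a small complex III subunit next to cytochrome c1, had 85.5, 103 and 111 CPM in WT and 132, 132 and 141 CPM in Rptor libraries (0.39, SE 0.10, adjusted p = 0.0125). Cox7a2 had 165, 201 and 198 CPM in WT and 237, 239 and 234 CPM in Rptor libraries (0.31, SE 0.08, adjusted p = 0.025). In all 3 genes every Rptor library lay above every WT library. Members with such a separation upward numbered 7, against 15.6% of all genes, and downward 1 (Atp5j2), against 15.4%.

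Cox5a was called with each of the 6 mouse libraries left out in turn. Uqcr10 was lost without Rptor library 3 or WT library 2, and Cox7a2 without Rptor library 2 or 3 or WT library 1 or 3. Without Rptor library 1 there were 8 calls, with 16.5% of all genes called. This added Atp5d (0.33), Cox6a1 (0.26), Cox6b1 (0.25), Cox5b (0.24) and, downward, Atp5j2 (-0.22). Without Rptor library 3 there was 1, with 8.95% of all genes called. There were 2 without Rptor library 2, WT library 2 or WT library 3, with 7.63%, 8.55% and 7.92% of all genes called. Enterocyte markers summed to 67414 to 68969 CPM in WT and 76883 to 80716 CPM in Rptor mice, and goblet cell markers to 25148 to 25430 and 29785 to 33325 CPM. Stromal markers went from 984 to 1016 CPM in WT to 1226 to 1471 CPM in Rptor mice, with 5 of 6 called up, and Paneth cell markers from 10132 to 10911 to 5837 to 9452 CPM, with 4 of 6 called down. Stem cell markers stood at 569 to 598 CPM in WT and 361 to 555 CPM in Rptor mice, with 2 of 7 called down. The part of these cell types was not tested. Summed over ATP synthase, the WT libraries held 8808 to 9543 CPM and the Rptor libraries 9207 to 9889 CPM, which overlap.

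Genes around the enzymes were read from lists of their assembly factors, partners and regulators. Between Rptor and WT organoid RNA 11.6% of all genes rose and 11.0% fell. In that comparison 0 of 23 complex IV assembly factors rose and 2 fell, Higd1a (-0.87) and Coa3 (-0.40), and of 6 complex III assembly factors 2 rose (Lyrm7 at 0.64 and Bcs1l, which inserts the Rieske protein, at 0.38) and 1 fell (Uqcc2 at -0.49). Of 5 ATP synthase assembly factors 1 fell (Tmem242 at -0.40). Cycs, the cytochrome c that links complexes III and IV, fell by 0.52 (adjusted p = 0.0111 by edgeR), and none of 8 complex II genes or 13 citrate cycle genes passed. Of 14 regulators 4 rose, among them Ppargc1a (1.43), a coactivator of mitochondrial genes, and Myc (0.73), and 1 fell (Gabpa at -0.31). The 6 mitochondrially encoded genes tested had a median of -0.11 and none passed.

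In SCe against WT organoids, 11 of 23 complex IV assembly factors fell and 2 rose, with Coa3 at -1.02, Coa4 at -0.96, Cox20 at -0.84 and Cox17, a copper carrier, at 0.66, where 19.9% of all genes fell and 22.4% rose. The median of that list was -0.26, close to that of the members, and that of all genes was 0.02. Of the 14 regulators 4 rose and 5 fell, with a median of -0.23 and a range from -0.84 to 1.91. Those that fell included Nrf1 (-0.43), Gabpa (-0.50), Yy1 (-0.60) and Tfam (-0.31), and Ppargc1a was at 1.91. Not every regulator called is named, and their part in the subunit changes was not tested. The mitochondrially encoded genes lay on the other side of 0 from the nuclear subunits, from 0.62 to 0.98 with a median of 0.73, and none of the 6 passed. Their summed RNA was 69654 to 139354 CPM in SCe and 66024 to 66846 CPM in WT libraries. Between Rptor and SCe RNA 5 of the 23 complex IV assembly factors were higher and 4 lower in Rptor, near the 21.0% and 21.8% of all genes. In the footprint comparisons no factor of the 3 assembly lists was called in the organoids or in the mice.

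The upstream region of many subunit genes holds short motifs that housekeeping promoters are known for, and it is shown because the subunit mRNAs shifted together. RefSeq start sites on GRCm38.p6, the assembly of mm10, were matched for 33 of the 45 genes, and 27 of them were subunits. Each region ran from 250 bases before to 50 after the start and was searched on both strands. GCGCANGCG, the core letters of the NRF1 motif, was found in 10 of the 27 subunit promoters (37%) and in a promoter of 7.03% of all 27025 genes with one. CCGGAAG, letters found in ETS and GABP motifs, was in 10 (37%) of the subunit genes and in 9.93% of all genes. CCAAT was in 14 (51.9%) and 41.1%, and ATGGCG, found in YY1 motifs, in 7 (25.9%) and 10.2%. TATAAA was in 1 (3.7%, Atp5l) and 15.7%. Of the 4 restricted isoforms matched, none held GCGCANGCG or CCGGAAG, and CCAAT was in Cox6b2, Cox7a1 and Cox7b2. Examples with the match in capitals, on the strand of the gene, are given below for genes described above.
Atp5g2 (chr15:102671071-102671099): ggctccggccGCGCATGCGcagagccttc
Atp5k (chr5:108434431-108434459): tttcactgcgGCGCATGCGcctttctggc
Uqcrc1 (chr9:108936668-108936696): actccgctctGCGCATGCGcagcgcggct
Cox6a1 (chr5:115349102-115349130): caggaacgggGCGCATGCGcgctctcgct
Cox6b1 (chr7:30626125-30626153): tcctctcgcagCTTCCGGccagtcggaat
Cox8a (chr19:7217604-7217632): tttccgaaataCTTCCGGctcgggcgtcc
Atp5j (chr16:84835020-84835048): agctgagggacCCGGAAGcacttaccctc

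Of these, Uqcrc1 lies on the plus strand and the others on the minus strand, and in Cox6b1 and Cox8a the motif reads on the opposite strand of the gene. Atp5k, which holds CCGGAAG besides GCGCANGCG, changed by -0.52 in Rptor and -0.43 in SCe organoids against WT. Uqcrc1, which holds GCGCANGCG without CCGGAAG, was at 0.01 and -0.30. Whether the motifs bear on the changes was not tested.

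A small part of the organoid footprints was counted on separate entries for the 5′ region of a transcript, which were left out of the values above. Over the members these entries held 1.8%, 2.09% and 2.02% of footprints in Rptor and 4.66%, 2.58% and 1.4% in SCe libraries. Over all genes they held more, 3.82% to 4.25% in Rptor and 2.97% to 6.98% in SCe libraries. Uqcrq had the highest share of the members with over 20 such footprints in each Rptor library and in SCe library 1, with 13.9%, 13.2% and 11.0% in Rptor and 25.1%, 17.1% and 11.8% in SCe libraries. Atp5j had 9.24%, 9.0% and 9.45% in Rptor and 19.3%, 19.4% and 6.81% in SCe libraries, and for both genes SCe library 3 was below the other SCe libraries.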

How the data were processed

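RNA sequencing and ribosome profiling libraries were quantified by the authors with Salmon 1.1.0 after trimming with cutadapt 1.18 on mm10, per the labels, and the deposited values are estimated counts per entry (expected counts). Per the study's methods, the reference for footprints had UTRs trimmed. The deposited mouse entries of Cox7a2 and Cox8a and the organoid entry of Cox8a were longer than their coding sequences. Counts were summed per gene without the 5′ entries, technical libraries of a sample were summed, and sums were rounded. The main test was edgeR 4.0.16 (R 4.3.3) quasi-likelihood, with filterByExpr and TMM scaling, on the groups compared, with Benjamini-Hochberg adjustment over all genes and a threshold of 0.05. DESeq2 1.42.0 was an alternative. Translational efficiency was the assay by group interaction, scaled within assay. CPM used TMM-scaled totals, and levels between genes also used the deposited length. No pair of libraries of a group agreed within sampling noise (chi-square per degree of freedom at least 1.55). The steps were tested on simulated data. The members and lists were chosen with earlier results of these data known. Named genes were, per comparison, up to 5 called members with the highest and 5 with the lowest change, those with the smallest p where few passed, core subunits, isoforms and non-subunits; further members with library values were named after their values were seen. The 95% intervals include the spread between libraries as edgeR estimated it, whereas floors cover counting error only.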

Additional observations from a re-analysis of the deposited data

How the results depend on the processing

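Members called in RNA Rptor against WT numbered 19 with DESeq2, 20 with the replicate number as a block, 3 with all RNA groups in 1 fit, 30 with technical libraries kept apart and 2 to 6 with a library left out. For Rptor against SCe RNA they numbered 13 (50.8%), 1 (22.6%) and 13 (49.1%) with DESeq2, the replicate block and the single fit. With an SCe library left out they numbered 2 to 14 (27% to 60.9%). For SCe against WT they numbered 26 with DESeq2 (50.7%) and 5 with the replicate block (21.1%). They numbered 5 to 33 with an SCe library left out (27.8% to 64.2%). Organoid footprints gave 2 with DESeq2 (20.7%), 2 with no filter (13.4%) and 0 with a length offset (6.12%). They gave 0 to 9 with a library left out (6.06% to 23.8%). Mice gave 1 with a length offset (5.89%) and 1 to 8 with a library left out (7.63% to 16.5%). Translational efficiency gave 0 to 2 with an SCe or footprint library left out (0.652% to 8.51%). It gave 9 with the SCe libraries numbered 1 left out of both assays (18.6%). Cox6b1 footprints, left out 1 library at a time, ranged from -0.41 to 0.35, the latter without Ribo SCe library 1. Cox6b1 translational efficiency turned to 0.49 without the SCe libraries numbered 1. With Salmon's effective length, the median subunit level became 447, 388 and 367 CPM per kb in WT, Rptor and SCe RNA, 3594 and 4358 in Rptor and SCe footprints and 1318 and 1409 in WT and Rptor mice. The Atp5g3 share became 71.3% and 71.6% in the mice, that of Cox6b2 0.269% and 0.312% there, and that of Cox7a1 3.96% (WT RNA), 7.26% (Rptor RNA), 2.6% (Rptor footprints), 41.4% and 36.9% (WT and Rptor mice). The causes were not tested. Deviations of same-numbered samples correlated at 0.144 to 0.303 in RNA, where there are 2 pairs, too few to establish a pairing, and at -0.044 to 0.034 in footprints. The labels name no shared source, so the numbers were not taken to pair samples. The study's methods mention an extra set of Rptor.fl/fl organoids induced in vitro for pairing, without saying which libraries these are.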
